A study of Mus musculus with 4 samples.

Results

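The 10 genes described here encode the PIWI protein Piwil2, the Tudor proteins Tdrd1, Tdrd12 and Tdrkh, the nuage proteins Ddx4 and Mael, the mitochondrial piRNA factors Asz1 and Pld6, and the small RNA enzymes Dicer1 and Ago2. They were chosen by name, and each was found by its NCBI gene number among the 17374 genes of the expression table, where together they held 41 of 45505 listed RefSeq transcripts. The libraries came from denuded germinal vesicle (GV) stage oocytes of postnatal day 16 female C57/Bl6/DBA2J F1 hybrid mice, held in meiotic arrest with milrinone, an inhibitor of the phosphodiesterase that degrades cyclic AMP. Both conditions were represented by 2 libraries made from pools of oocytes in independent experiments, control oocytes without irradiation and oocytes collected 24 h after 5 Gy of γ-irradiation from a caesium-137 source. The text that accompanies the series describes the untreated cells as sequenced directly. The paper compares control and irradiated oocytes 24 h after irradiation and does not state how long the controls were cultured. Whether both were cultured for the same time is thus unclear, so an effect of time in culture cannot be told apart from one of irradiation in these libraries. The question was whether the transcripts of these genes, or the isoforms they are made of, differ after genotoxic stress.

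In germ cells, PIWI proteins carry piRNAs, small RNAs that guide the silencing of transposons. Tudor proteins bind methylated arginines on PIWI proteins and gather them in nuage, the granules beside mitochondria in which piRNAs are made, and several of the enzymes sit on the mitochondrial surface itself. Male mice that lack many of these genes are sterile, whereas female mice largely tolerate their loss. The growing mouse oocyte relies strongly on a different pathway, in which Dicer1 cuts double-stranded RNA into endogenous siRNAs that are loaded into Ago2.

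The libraries held between 33349466 and 37232818 estimated counts. Irradiated library 2 stood apart from the other 3. Its correlation with them over 12494 genes was 0.986 to 0.989 on the log2(TPM + 1) scale, against 0.997 to 0.998 among the others, and it had 14150 genes over 3 counts, against 13677 to 13733. For many of the log2 fold changes below, the value without it is given too. All 10 oocyte markers were over 3 counts in every library and summed to between 27711 and 29631 TPM. Single markers in irradiated library 2 moved apart from the other 3 libraries under that sum, with Zp2 at 1937 TPM against 4115 to 4452 TPM and Oosp1 at 1038 TPM against 2200 to 2498 TPM, but Zp1 at 2579 TPM against 989 to 1294 TPM and Zp3 at 15620 TPM against 10914 to 11773 TPM. Of 12 granulosa and cumulus markers 8 were listed and 4 were over 3 counts in every library, with summed levels of 16.8 and 19.05 TPM in control and 16.7 and 22.3 TPM in irradiated libraries. Of 9 markers of stroma, theca, endothelium and blood 4 were listed, and their sums ran from 4.10 to 6.18 TPM. No listed marker of these other cells was at 0 in all 4 libraries, and both sums were highest in irradiated library 2. Their part in the results was not tested.

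Tdrd12 was by far the most abundant of the 10 transcripts on the TPM scale, which corrects for transcript length. In bulk libraries such as these, fewer cells of a type and less RNA per cell cannot be told apart. Its level was 380 and 370 TPM in control and 373 and 377 TPM in irradiated libraries, which placed it at rank 391 among the listed genes. Tdrd12 is a helicase with Tudor domains that acts in secondary piRNA production. Mael, the Maelstrom protein of nuage, followed with 98.4 and 113 TPM in control and 106 and 144 TPM in irradiated libraries. The next 3 genes in order overlapped in their levels and were not separable. Ddx4, the mouse Vasa RNA helicase and a classical germ cell marker, had 75.3 and 76.2 TPM in control and 75.9 and 77.7 TPM in irradiated libraries. Asz1, a protein of the outer mitochondrial membrane also known as GASZ, had 71.5 and 78.4 TPM in control and 64.8 and 86.8 TPM in irradiated libraries. Tdrkh, a mitochondrial Tudor protein that tethers PIWI proteins, had 68.4 and 67.6 TPM in control and 69.8 and 92.5 TPM in irradiated libraries.

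Below these, each gene was separated from its neighbours by its values in all 4 libraries, except the last pair. Dicer1 had 34.1 and 35.0 TPM in control and 29.8 and 29.8 TPM in irradiated libraries. Tdrd1, a Tudor partner of Piwil2 in nuage, had 16.8 and 17.8 TPM in control and 18.1 and 19.96 TPM in irradiated libraries. Ago2, the only Argonaute protein in the mouse that is known as an efficient RNA slicer, had 3.42 and 4.08 TPM in control and 3.06 and 4.57 TPM in irradiated libraries. Piwil2 and Pld6 were lowest and overlapped. Piwil2, also known as MILI, had 0.89 and 0.95 TPM in control and 1.06 and 1.01 TPM in irradiated libraries, from 110 to 128 counts per library. Pld6, the mitochondrial nuclease relative known as MitoPLD or Zucchini, had 0.51 and 0.46 TPM in control and 0.70 and 1.2 TPM in irradiated libraries, from 18 to 45 counts. The total of the Tudor gene Tdrd12 was thus near 375 TPM while that of the PIWI gene was near 1 TPM. Most of the Tdrd12 total, 371 and 361 TPM in control and 362 and 356 TPM in irradiated libraries, was assigned to a short form described below. Its 5 longer predicted transcripts together had 8.92 and 8.87 TPM in control and 10.4 and 20.7 TPM in irradiated libraries. Tdrkh likewise had 3.69 and 3.99 TPM in control and 4.20 and 6.51 TPM in irradiated libraries outside its short form.

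On GRCm38 the genes lay on 10 different chromosomes. Mael lies at chr1:166201385-166238744, Ddx4 at chr13:112598333-112652633, Asz1 at chr6:18050964-18109061, Ago2 at chr15:73101625-73184947, Piwil2 at chr14:70372477-70436898 and Pld6 at chr11:59783893-59787657, all on the minus strand, and Tdrd1 lies on the plus strand at chr19:56826171-56870012. Tdrd12, Tdrkh and Dicer1 are placed with their isoforms.

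**Figure D1:**
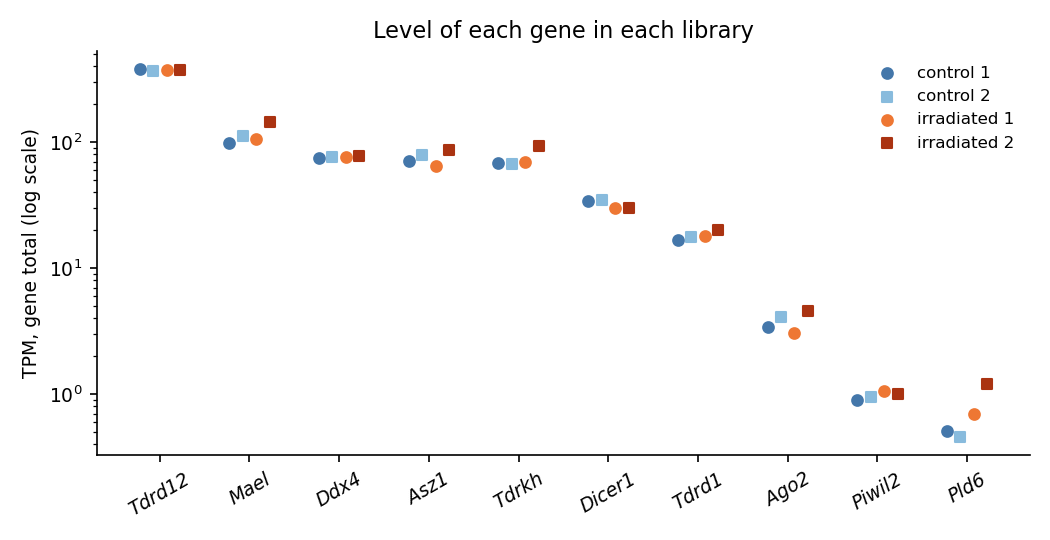
Level of each of the 10 genes (x axis) in TPM of the gene total on a log scale (y axis), with 1 point per library. Tdrd12 sits near 375 TPM in all 4 libraries, and Piwil2 and Pld6 sit near or below 1 TPM.

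None of the 10 gene totals passed the test of a difference between conditions. By edgeR's quasi-likelihood test on counts normalized by trimmed mean of M-values (TMM), 0 of 10 passed both limits, an adjusted p under 0.05 and an absolute log2 fold change over 2, and 0 of 10 had an unadjusted p under 0.05. Over all 12569 genes tested, 1 passed both limits, 0.00796%, and 5.92% had an unadjusted p under 0.05. DESeq2, limma-voom and edgeR's exact test also called 0 of the 10. Adjusted p-values of the members lay between 0.708 and 0.976. Their median log2 fold change, irradiated minus control, was -0.11, beside 0.01 over all genes tested, and with irradiated library 2 left out these medians were -0.01 and 0.00. Of the 10 genes 3 had fold changes above 0 and 7 below, while 51.4% of all genes tested were above 0, but the split turned with the scaling, with 5 of the 10 below 0 under library size alone and 2 of the 10 on the log2(TPM + 1) scale.

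The Tudor and PIWI genes had small differences with intervals on both sides of 0. The log2 fold change of Tdrd12 was -0.15 (SE 0.20, 95% interval -0.62 to 0.32), from 16411 and 15068 normalized counts in the controls and 15600 and 12831 after irradiation. Only irradiated library 2 lay below both controls, and without it the log2 fold change of Tdrd12 was -0.01. Tdrkh had a log2 fold change of 0.03 (SE 0.13, 95% interval -0.28 to 0.34), with 2319 and 2168 normalized counts in the controls and 2272 and 2311 after irradiation. For Tdrd1 it was -0.08 (SE 0.15, 95% interval -0.43 to 0.27), with 2233 and 2217 normalized counts in the controls and 2294 and 1911 after irradiation. The irradiated libraries of Tdrd1 lay on either side of the controls, and its log2 fold change was 0.04 without irradiated library 2. Piwil2 also had irradiated values on either side of the controls, with 119 and 119 normalized counts in the controls and 136 and 97.3 after irradiation. Its log2 fold change was -0.03 (SE 0.23, 95% interval -0.57 to 0.51) with all libraries and 0.19 without irradiated library 2.

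The nuage genes lay close to their controls as well. Ddx4 had 5669 and 5388 normalized counts in the controls and 5465 and 4223 after irradiation, a log2 fold change of -0.19 (SE 0.18, 95% interval -0.61 to 0.23) that was -0.02 without irradiated library 2. Mael had 3750 and 4050 normalized counts in the controls and 3884 and 3989 after irradiation, and the irradiated values lay inside the range of the controls. Its log2 fold change was 0.01 (SE 0.14, 95% interval -0.32 to 0.35), and -0.01 without irradiated library 2.

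In 4 genes the irradiated and control libraries did not overlap, 1 above and 3 below, where 22.1% and 19.9% of all genes tested did so. Pld6 was above, with 22.5 and 19.5 normalized counts in the controls and 29.8 and 38.7 after irradiation. Its log2 fold change of 0.71 (SE 0.32, 95% interval -0.06 to 1.48, adjusted p = 0.71 by edgeR) was the largest of the 10 and was 0.50 without irradiated library 2. Asz1 was below, with 3116 and 3222 normalized counts in the controls and 2703 and 2741 after irradiation, and a log2 fold change of -0.22 (SE 0.13, 95% interval -0.53 to 0.10). Ago2 was below as well, with 753 and 842 normalized counts in control, 642 and 725 in irradiated libraries and a log2 fold change of -0.22 (SE 0.14, 95% interval -0.55 to 0.11). Without irradiated library 2 the log2 fold change of Ago2 was -0.31. In TPM neither Asz1 nor Ago2 was below in both irradiated libraries, and irradiated library 2 had the highest value of each. Over the 10 genes, irradiated library 2 had the highest TPM in 7 but the highest normalized count in 1, while over all genes tested it had the highest normalized count in 38.2%. The share of all genes with their highest TPM in that library was not counted. On the log2(TPM + 1) scale the median log2 fold change of all genes tested was 0.14.

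Dicer1, the RNase that makes microRNAs and siRNAs, had the lowest log2 fold change of the 10 genes. Its normalized counts were 8401 and 8090 in the controls and 7003 and 5339 after irradiation, a log2 fold change of -0.42 (SE 0.19, 95% interval -0.86 to 0.03, unadjusted p = 0.061, adjusted p = 0.71 by edgeR). Both irradiated libraries were lower on the normalized scale and also in TPM. Leaving out irradiated library 2 gave a log2 fold change of -0.23 for Dicer1, and leaving out irradiated library 1 gave -0.64. The difference did not pass the test.

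**Figure D2:**
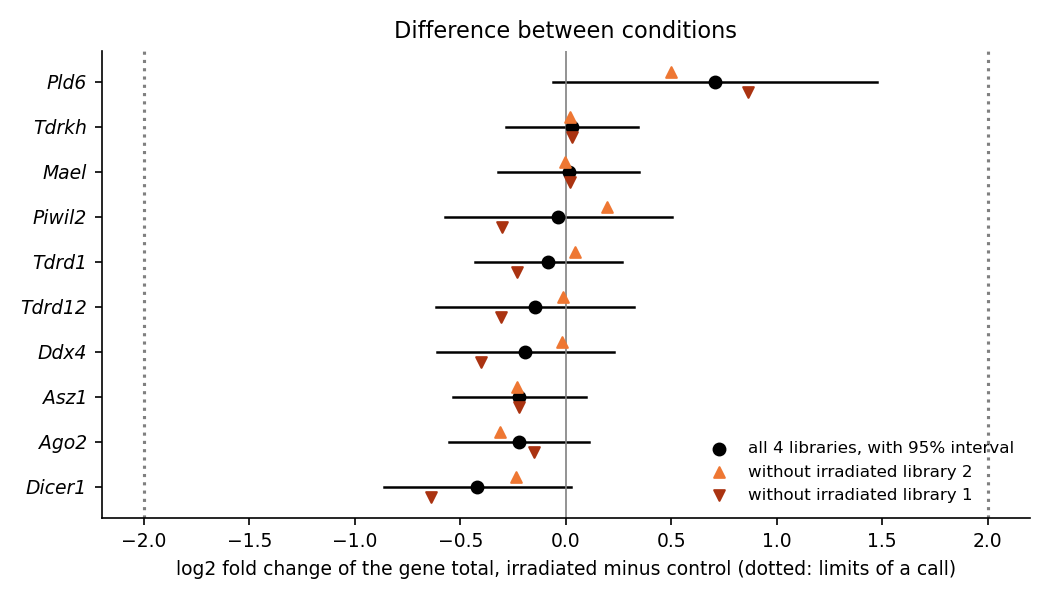
Log2 fold change of each gene total, irradiated minus control (x axis), for the 10 genes (y axis). Black points with 95% intervals use all 4 libraries, triangles leave out 1 irradiated library, and dotted lines mark the limits of -2 and 2. Every interval includes 0, and without irradiated library 2 the values of Piwil2, Tdrd1 and Mael change sign while those of Tdrd12 and Ddx4 come to -0.01 and -0.02.

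Other genes of the piRNA, microRNA and siRNA pathways were examined in a list of 44, of which 43 were in the table and 41 passed the filter on low counts. Of these 41, 0 passed both limits by edgeR, DESeq2, limma-voom or the exact test, and 4 had an unadjusted p under 0.05. The 4 were 3 higher and 1 lower, where 4.63% and 1.29% of all genes tested were. The median log2 fold change of the 41 was 0.04, and -0.00080 without irradiated library 2, which had the highest normalized count in 19 of them. Of the 41, 24 were above 0 and 17 below, beside the 51.4% of all genes tested that were above 0. Rnf17, a Tudor protein, had 3205 and 3406 normalized counts in the controls and 2795 and 2292 after irradiation, a log2 fold change of -0.38 (SE 0.15) that was -0.24 without irradiated library 2. Spocd1, which takes part in piRNA-guided DNA methylation, had 73.8 and 95.4 normalized counts in the controls and 111 and 178 after irradiation, a log2 fold change of 0.78 (SE 0.29) that was 0.39 without irradiated library 2. Tex19.1, a mammalian factor that restrains retrotransposons, had 1542 and 1625 normalized counts in the controls and 1915 and 2095 after irradiation. Its log2 fold change was 0.34 (SE 0.13), and 0.28 without irradiated library 2. All 3 had irradiated libraries that did not overlap the controls, but their adjusted p by edgeR was 0.71. Of the 41, 9 were above the controls in both irradiated libraries and 7 below, beside 22.1% and 19.9% of all genes tested.

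The remaining gene of the 4 was Marf1, an oocyte RNase that controls meiosis and retrotransposons. It had 1383 and 1387 normalized counts in control, 1467 in irradiated library 1 and 6825 in irradiated library 2. Its log2 fold change of 1.58 (SE 0.60, adjusted p = 0.71 by edgeR) rested on that library. Leaving out irradiated library 2 gave 0.08, and leaving out irradiated library 1 gave 2.29, a value with which Marf1 passed both limits.

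Among the other genes of the pathways, Gtsf1, a zinc finger protein that assists PIWI proteins, exceeded Tdrd12 in level. It had 2661 and 2688 TPM in control and 2344 and 3115 TPM in irradiated libraries, at rank 56 among the listed genes. The next highest were the piRNA methyltransferase Henmt1, with a mean of 84.8 TPM over the 4 libraries, and translin, Tsn, at 82.4 TPM. Tarbp2, a Dicer1 partner, had a mean of 48.9 TPM, Stk31 47.9 TPM, Tex19.1 46.8 TPM, the translin partner Tsnax 37.5 TPM and the piRNA trimmer Pnldc1 34.8 TPM. At the other end, the Argonaute gene Ago1 and the uridylyltransferase gene Tut4 had at most 7 counts in any library and were not tested.

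The isoforms of Tdrd12 gave the only result of the 10 genes that passed a test. When edgeR's test of isoform usage was run on each gene with several transcripts, 16 of 6323 genes, 0.253%, had an adjusted p under 0.05, and Tdrd12 was among them with an adjusted p of 0.014. Of the 7 members that could be tested, 1 had an unadjusted p under 0.05, where 6.12% of all genes tested did. The transcript of Tdrd12 with the smallest p was XM_030242998.1, a predicted transcript whose counts were 387 and 310 in control libraries but 1.16 and 0 in irradiated libraries. Relative to its gene it had an adjusted p of 0.0089 by the same edgeR model. Against a floor of 3 counts per library, its mean of 364 normalized counts in control (SD 42.1, n = 2) was at least 121-fold higher than in irradiated libraries. Of the 41 transcripts of the 10 genes it was the only transcript at 20 or more counts in both controls and at or under 3 in both irradiated libraries, a pattern of 0.369% of listed transcripts. The reverse pattern was seen in 0 of the 41 and in 0.51% of listed transcripts.

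A pair of other predicted transcripts of Tdrd12 lay the opposite way. XM_030243001.1 had 969 and 838 counts in the controls and 1200 and 2617 after irradiation. XM_030243000.1 had 66.7 and 106 counts in the controls and 308 and 188 after irradiation. Both were higher in irradiated libraries without overlap, with log2 fold changes of 0.91 (SE 0.33) and 1.43 (SE 0.50) and an adjusted p of 1.00 by edgeR for each. For XM_030243001.1 the log2 fold change was 0.43 without irradiated library 2, and for XM_030243000.1 it was 0.84 without irradiated library 1. Added together, the counts of these 3 transcripts were 8.89% and 9.02% of all Tdrd12 counts in the controls and 10.3% and 18.8% after irradiation. The 3 as a sum were therefore not lower after irradiation. In the fit of single transcripts 0 of 26645 passed both limits by edgeR, and 4.90% had an unadjusted p under 0.05, against 2 of 32 tested transcripts of the 10 genes, 1 higher and 1 lower, where 2.73% and 2.17% of all transcripts tested were. Of the 32, 6 were above the controls in both irradiated libraries and 8 below, beside 18.7% and 17.9% of all transcripts tested, and 20 had a log2 fold change above 0, beside 50.2%. XM_030242998.1 had an adjusted p of 0.78 there, while DESeq2 gave an adjusted p of 4.0e-07 and edgeR's exact test an adjusted p of 2.2e-20, and the other alternatives with all 4 libraries reached up to 0.96.

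The usage result for Tdrd12 lost its call whichever library was left out. Its adjusted p by edgeR was 0.336 without control library 1, 0.414 without control library 2, 0.090 without irradiated library 1 and 0.202 without irradiated library 2. The estimates of similar transcripts moved widely between libraries of the same condition in some of the other genes. Among the 41 transcripts, 11 were at 0 in 1 library and at 20 or more in the other library of the same condition. The 11 came from 5 genes, Piwil2, Tdrd1, Tdrkh, Ddx4 and Pld6, and none was a Tdrd12 transcript. XM_030242998.1 itself had 387 and 310 counts in the controls and 1.16 and 0 after irradiation. The share of all listed transcripts that moved in this way was not counted. How reads were divided among overlapping predicted transcripts was not tested.

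**Figure D3:**
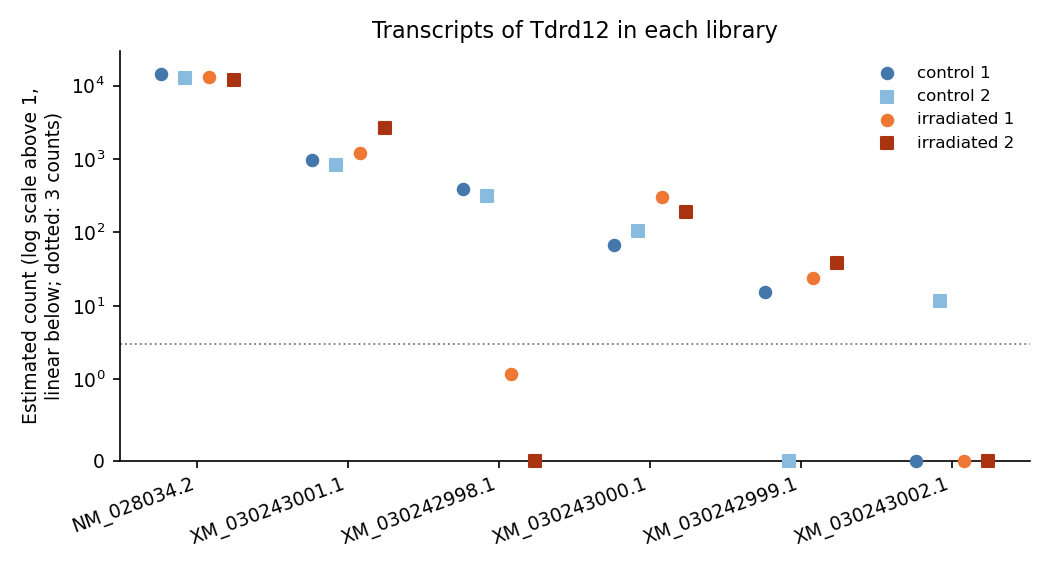
Estimated count of each of the 6 listed Tdrd12 transcripts (x axis) in each library, on a log scale above 1 and a linear scale below (y axis), with a dotted line at 3 counts. NM_028034.2 leads in all 4 libraries, and XM_030242998.1 is at 387 and 310 counts in control and at 1.16 and 0 in irradiated libraries.

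The bulk of Tdrd12 RNA was counted on a short form. The transcript NM_028034.2 held 91.0% and 90.9% of Tdrd12 counts in the controls and 89.5% and 80.9% after irradiation, with the lowest share in irradiated library 2. Its counts were 14574 and 12637 in the controls and 13135 and 12057 after irradiation, a log2 fold change of -0.22 (SE 0.19) that came to -0.03 with irradiated library 2 left out and to -0.44 with irradiated library 1 left out. Tdrd12 lies on the minus strand at chr7:35466941-35537784 (GRCm38). The short form has 12 exons and 407 codons, while the long coding form in the GENCODE annotation has 30 exons and 1216 codons. The part of the coding sequence where the forms part is printed here to make clear what was being counted, with 30 shared bases in lower case and the bases particular to each form in capitals.
Tdrd12 short form, capitals at chr7:35493800-35493829: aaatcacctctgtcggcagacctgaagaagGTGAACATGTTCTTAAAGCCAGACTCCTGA
Tdrd12 long form, capitals at chr7:35491196-35491255: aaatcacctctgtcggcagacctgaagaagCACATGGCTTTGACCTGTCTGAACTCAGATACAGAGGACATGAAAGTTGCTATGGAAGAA
In the short form the capitals are the last 10 codons, stop included, read into what is an intron of the long form. The long form continues for 819 codons, of which the start is printed. The short form therefore ends in an intron of the long form, before the remaining coding exons. Most Tdrd12 reads counted here were assigned to the form that lacks those exons. The 5 longer predicted transcripts of the table together had 8.92 and 8.87 TPM in control and 10.4 and 20.7 TPM in irradiated libraries. Their exons are not in the annotation used here. Read from counts per TPM, the effective length of NM_028034.2 was 0.244 to 0.246 of that of XM_030243001.1, the most counted of the 5.

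Tdrkh was counted on a short form in the same way. NM_001357713.1 held 87.5% and 87.0% of its counts in the controls and 87.1% and 84.9% after irradiation, and its counts were 1979 and 1741 in the controls and 1860 and 2279 after irradiation. The gene lies on the plus strand at chr3:94413243-94434854. Its short form has 6 exons and 891 coding bases, and its long form has 13 exons and 1683 coding bases, stop codons included. The share of the short form differed by less than 3 percentage points over the 4 libraries, and isoform usage of Tdrkh had an adjusted p of 1.00 by edgeR. Tdrkh shares 1468 bases of its span with Oaz3, which had 33.8 to 95.7 counts per library, and the sources used here do not say whether strand was used in counting.

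**Figure D4:**
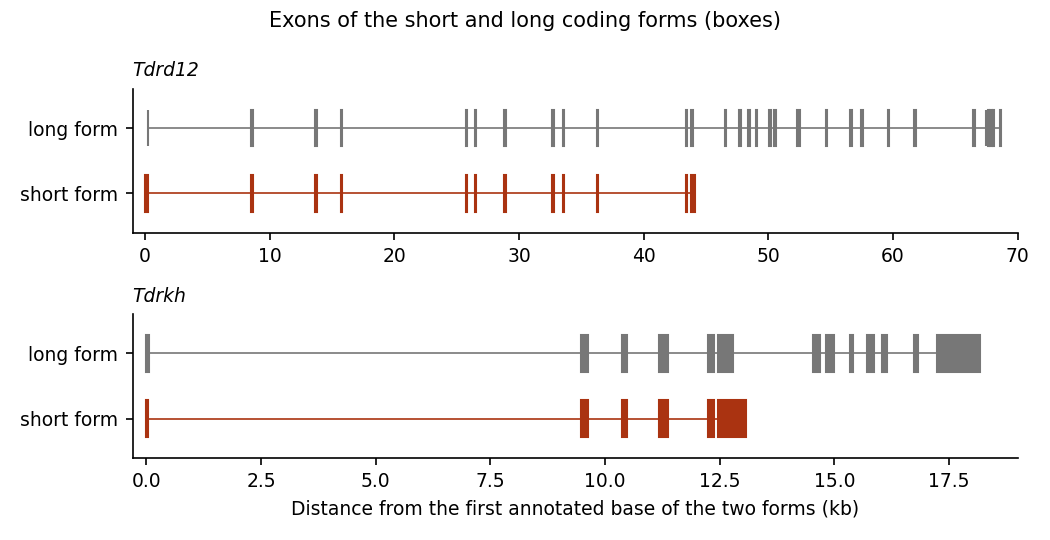
Exons (boxes) of the short and long coding forms of Tdrd12 (upper panel) and Tdrkh (lower panel) in the GENCODE annotation, by distance from the first annotated base in kb (x axis). Tdrd12 has 12 exons in the short and 30 in the long form, Tdrkh has 6 and 13, and both short forms end within the span of the long form.

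Dicer1 was counted mainly on a predicted transcript, XM_017314998.2. The mouse oocyte is known for a shorter Dicer1 protein, made from a promoter in an intronic retrotransposon of the MT family, that cuts long double-stranded RNA efficiently. The exons of XM_017314998.2 are not in the annotation used here, so whether it is that form cannot be said from the table, and its effective length was 0.890 to 0.892 of that of the known transcript NM_148948.2. XM_017314998.2 had 6868 and 6253 counts in the controls and 5278 and 4619 after irradiation. NM_148948.2 had 1209 and 1026 counts in the controls and 1137 and 1328 after irradiation. The predicted transcript was lower in both irradiated libraries and the known transcript was not.

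On the normalized scale the log2 fold change of XM_017314998.2 was -0.51 (SE 0.20, 95% interval -1.08 to 0.06), and that of NM_148948.2 was 0.02 (SE 0.11, 95% interval -0.31 to 0.34). The share of Dicer1 counts on the predicted transcript was 83.8% and 83.8% in the controls and 80.2% and 74.5% after irradiation, a mean of 83.8% ± 0.0049 (SD, n = 2) against 77.3% ± 4.0 (SD, n = 2). The shares did not overlap, but the test of isoform usage in Dicer1 gave an adjusted p of 1.00 by edgeR. Without irradiated library 2 the log2 fold change of XM_017314998.2 was -0.29. Dicer1 lies on the minus strand at chr12:104687740-104751968.

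**Figure D5:**
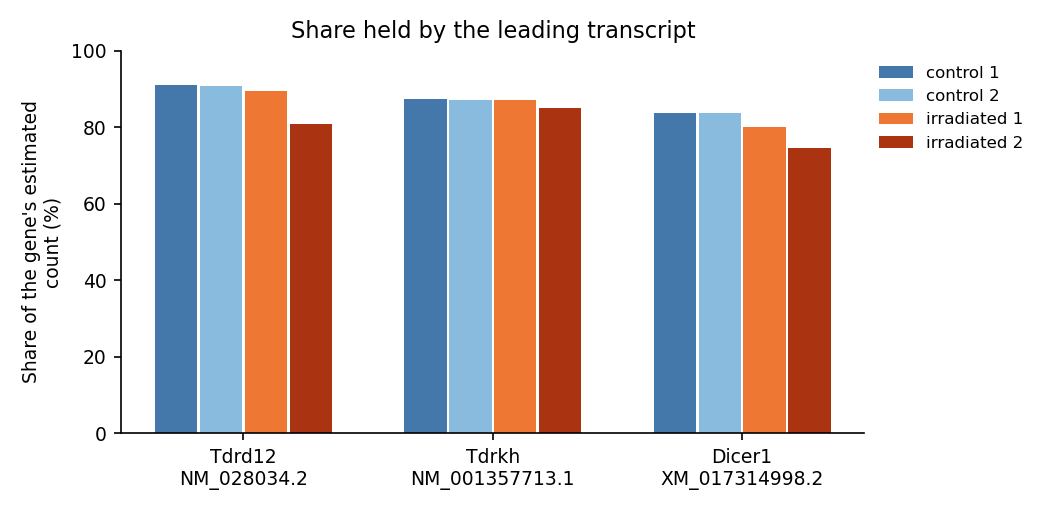
Share of the gene's estimated count held by its leading transcript (y axis, %) for Tdrd12, Tdrkh and Dicer1 (x axis), with 1 bar per library. Tdrd12 and Dicer1 have their lowest shares, 80.9% and 74.5%, in irradiated library 2, while Tdrkh stays between 84.9% and 87.5%.

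In the other genes no transcript passed a test between conditions. Mael, Asz1 and Ago2 had 1 listed transcript each. In Tdrd1 the transcript NM_001002238.2 held between 72.4% and 79.3% of counts, and the transcript with the smallest p, XM_006527478.1, had 26.03 and 26.8 counts in the controls and 27.8 and 84.2 after irradiation. In Ddx4 the transcript NM_001145885.1 held between 91.4% and 93.8% of counts. The Ddx4 transcript with the smallest p, XM_011244621.3, had 59.4 and 143 counts in the controls and 34.2 and 2.59 after irradiation, with a log2 fold change of -2.47 (SE 1.38, adjusted p = 1.00 by edgeR). In Tdrkh the smallest p belonged to XM_030252843.1, with 18.9 and 21.0 counts in the controls and 15.2 and 11.3 after irradiation.

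The counts assigned to the isoforms of the rare genes varied between libraries of the same condition. In Piwil2, NM_021308.2 had 27.2 and 110 counts in the controls and 0 and 46.3 after irradiation, and XM_006519329.3 had 88.8 and 0 in the controls and 128 and 66.7 after irradiation. In Pld6, NM_001290283.1 had 0 and 18 counts in the controls and 28 and 0 after irradiation, and NM_183139.2 had 22 and 0 in the controls and 0 and 45 after irradiation. The leading transcript switched between the control libraries in both genes, and between the irradiated libraries in Pld6 only. Both Pld6 accessions are matched to the same GENCODE transcript. Whether the Pld6 values show different isoforms was not tested.

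The start sites of these genes were compared for sequence features that were not used to choose them. RefSeq promoter windows (GRCm38.p6) were at hand for 8 of the 10 genes, 12 windows in all, and the 250 bases before each start site were searched on both strands. The motif CACGTG, the E-box bound by factors of the MYC, MAX and MGA family, was found before a start site of Ddx4, Mael, Pld6 and Tdrd1, 4 of 8 genes, where 6.86% of all genes with a window and 8.72% of those in the expression table held it. Of the 35 other pathway genes with a window, 7 held it, 20%. The motif TCCCGC, part of the site read by E2F factors, was found in Ddx4, Dicer1 and Mael, in 3 of 12 windows, 25%, against 16.9% of all windows and 25.2% of those of genes in the expression table. Counted by gene, TCCCGC was in 37.5%, against 18.8% of all genes, 28.7% of those in the expression table and 34.3% of the other pathway genes. The motif TATAAA was found in 0 of 12 windows against 12.4% of all windows and 9.02% of those of genes in the expression table. The motifs do not overlap in any of these windows. E-boxes of this kind and E2F sites are known from promoters of germline genes that are silenced in other tissues, and 3 windows are printed for that reason, 5′ to 3′ on the strand of the gene, with CACGTG and TCCCGC (or its complement GCGGGA) in capitals.
Ddx4, chr13:112652311-112652560, minus strand: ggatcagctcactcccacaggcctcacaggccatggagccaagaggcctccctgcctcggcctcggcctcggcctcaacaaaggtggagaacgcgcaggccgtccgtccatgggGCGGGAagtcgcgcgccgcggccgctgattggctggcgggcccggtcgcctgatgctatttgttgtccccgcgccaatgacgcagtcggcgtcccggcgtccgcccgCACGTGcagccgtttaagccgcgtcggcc
Mael, chr1:166238745-166238994, minus strand: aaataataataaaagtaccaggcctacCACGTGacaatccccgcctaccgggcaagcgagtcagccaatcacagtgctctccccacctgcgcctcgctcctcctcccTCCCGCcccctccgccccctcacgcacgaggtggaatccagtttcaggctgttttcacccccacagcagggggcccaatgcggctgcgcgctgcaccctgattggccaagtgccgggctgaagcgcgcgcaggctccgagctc
Tdrd1, chr19:56826025-56826274, plus strand: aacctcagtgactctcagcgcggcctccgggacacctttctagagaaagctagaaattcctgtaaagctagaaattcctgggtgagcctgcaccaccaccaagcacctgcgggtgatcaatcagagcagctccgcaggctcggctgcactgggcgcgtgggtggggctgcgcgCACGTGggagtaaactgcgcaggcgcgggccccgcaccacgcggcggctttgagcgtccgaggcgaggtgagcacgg
In the printed windows the E-box begins 29 bases before the start site in Ddx4, 223 in Mael and 77 in Tdrd1. The leading Ddx4 transcript NM_001145885.1 starts inside the printed window, at chr13:112652475 in GENCODE. Both marked motifs of Ddx4 lie after that start. The start site of the printed Tdrd1 window is that of NM_001002240.2, with 0 and 160 counts in the controls and 0 and 0 after irradiation. A second, overlapping Tdrd1 window holds the same E-box 11 bases before the start of the leading NM_001002238.2. The E-box of Pld6 begins 33 bases before its start site. The Dicer1 window lies directly before the GENCODE start of NM_148948.2. That transcript held 14.7% and 13.7% of Dicer1 counts in the controls and 17.3% and 21.4% after irradiation. The start of the leading Dicer1 transcript XM_017314998.2 is not in the annotation used here. These matches describe letters in the windows, and the genes that hold them ran from Mael at about 115 TPM to Pld6 at about 0.72 TPM.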

How the data were processed

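The authors sequenced oligo(dT)-selected mRNA by Illumina sequencing as 100 bp paired reads and trimmed them, and the submitters' processing notes name HISAT2, Bowtie2 and RSEM with mm10, without versions. They deposited estimated counts and TPM per RefSeq transcript for each of the 4 libraries, and their FPKM and average columns were not used. How RSEM divided reads among overlapping transcripts sets every transcript value, and neither the annotation release nor the use of strand is given in the sources used here.

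Counts were summed per gene and rounded. The main test was the quasi-likelihood F test of edgeR (4.0.16, R 4.3.3), which asks for a difference in either direction, after TMM scaling and removal of low genes by filterByExpr (minimum count 10), with Benjamini-Hochberg adjustment over all 12569 genes. Transcripts were tested in the same way, and isoform usage by edgeR's diffSpliceDGE with Simes' method. For gene totals and single transcripts both limits, an adjusted p under 0.05 and an absolute log2 fold change over 2, had to be passed for a call. Isoform usage was called on an adjusted p under 0.05 alone. Intervals are 95%. Normalized counts are counts divided by the TMM-adjusted library size relative to its mean. With 2 libraries per condition, p-values measure the spread between these libraries only. An exact permutation of 2 against 2 libraries cannot pass 0.05, so none is given. Alternatives used DESeq2 1.42.0, limma 3.58.1, other scalings and filters, TPM with pseudocounts of 1 and 0.1, a replicate block, and each library left out. The methods were tested on simulated data.

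Named genes were all members, with the leading and smallest-p transcript of each, and of the pathway list those called, those with an unadjusted p under 0.05, the 8 highest in TPM and the least counted. The members and lists were chosen with earlier results of these data known. Tdrd15 of the pathway list was not analysed here. The coding ends of Tdrkh are not reported here. Coding ends and exons came from GENCODE vM21 and promoter windows from RefSeq, both on GRCm38. The depth was 33349466 to 37232818 estimated counts per library.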

Additional observations from a re-analysis of the deposited data

How the results depend on the processing

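With DESeq2 the number of gene totals past both limits was 4, with limma-voom 0, with the exact test 10, with library size alone 0, without a filter 3, with log2(TPM + 1) or log2(TPM + 0.1) 0 and with the replicate block 7, against 1. It ran from 16 to 84 with 1 library left out, where the lone library is assumed to vary like the other condition's. Single transcripts past both limits were 248 with DESeq2 and 299 with the exact test, against 0. Genes with changed isoform usage were 58 by the gene-level F test and 3 with the replicate block, against 16, and ran from 1 to 29 with 1 library left out. Members and pathway genes past both limits ran from 0 to 1. The adjusted p of isoform usage in Tdrd12 was 0.584 with the replicate block and ran from 0.0900 to 0.414 with 1 library left out, against 0.014. With 2 pairs the shared numbers are not shown to pair the libraries (the correlation of same-numbered deviations was 0.22), so the block is no test of a weaker effect.

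Directions near 0 turned with the scaling, which moved the median of all genes to a log2 fold change of 0.17 with library size alone, 0.14 with log2(TPM + 1) and 0.21 with log2(TPM + 0.1). In that order, Piwil2 was at 0.104, 0.0840 and 0.154 and Tdrd1 at 0.0637, 0.131 and 0.138. With log2(TPM + 1) and log2(TPM + 0.1), Ddx4 was at 0.0195 and 0.0198, Asz1 at 0.0020 and 0.0018 and Ago2 at 0.0051 and 0.0021. Relative to the median of all genes, the median of the 10 genes lay between -0.09 and -0.14 under the scalings. Mael was at -0.0042 with DESeq2. With 1 library left out, Piwil2 ran from -0.303 to 0.194, Tdrd1 from -0.232 to 0.0444, Tdrkh from -0.0218 to 0.0748, Mael from -0.0463 to 0.0657 and the Dicer1 transcript NM_148948.2 from -0.0542 to 0.0920. The cause was not tested. The alternative values of gene totals numbered 182, for the 10 genes and for Rnf17, Spocd1, Tex19.1 and Marf1, which had been picked by their p in these data. Of the 182, 163 kept direction and side of the limits, 18 turned and 1, Marf1, was called. All 18 that turned were values of the 10 genes. By TPM in place of counts, the leading transcript held 96.7% of Tdrd12 and 93.9% of Tdrkh, against 88.1% and 86.6%. The order of the genes by counts per kb of RefSeq length was not run, since the lengths of the predicted transcripts were not analysed here.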
